A study of Mus musculus with 21 samples.

Results

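Spiral ganglion neurons (SGNs), the primary auditory neurons of the cochlea, were compared between mice at postnatal day 1 (P1), before hearing, and at P14, after its onset. The comparison rests on 3 libraries at each age, 6 of the 21 libraries of the series. Members were all genes with over 1 CPM (counts scaled to the total of their library) in all 3 libraries of either age, which held for 13776 of the 52550 genes counted.

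Every SGN came from C57BL/6 mice that carried one ShhCre allele and one Rosa26-CAG-loxp-stop-loxp-tdTomato (Ai9) reporter allele, so that both ages shared the same 2 transgenes, and Cre was driven from the Shh locus. Red cells of the dissociated ganglion were picked by hand. The P1 libraries held 195, 140 and 150 cells and the P14 libraries held 127, 103 and 89 cells. RNA of each pool was amplified before sequencing, and amplified pools were screened by qPCR for contaminating cells before a library was made, so a pool is a selected sample. The labels do not say whether the 3 pools of an age came from separate animals, and p-values then measure only the spread between these pools. In pooled cells, fewer cells of a type and less RNA per cell cannot be told apart.

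SGNs are bipolar glutamatergic neurons. Their peripheral process contacts an inner hair cell and their central axon ends in the cochlear nucleus, in large calyceal synapses among others. Between birth and hearing onset the neurons fire in bursts driven by the hair cells, their axons become myelinated, and sodium channels gather at nodes of Ranvier and heminodes. Fast potassium currents, high-rate transmitter release and large-calibre axons are the known properties of the mature cells.

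Between P1 and P14, more genes rose than fell among the Kv1 to Kv4 potassium channels, the vesicle release machinery and the glycolytic enzymes of SGNs. More fell than rose among growth cone genes, voltage-gated calcium channels and SGN transcription factors, and sodium channel subunits split. In numbers, 1220 genes were higher at P14 (8.86% of the genes tested) and 1040 were lower (7.55%), 16.4% in all, at an adjusted p under 0.05 and over 2-fold. Counts of genes that rose or fell in each list below are to be read beside these shares. Values come from limma-voom with trimmed-mean (TMM) scaling fitted to all 15 SGN libraries of 5 ages, with Benjamini-Hochberg adjustment over all genes tested, and adjusted p-values below are from that fit. Levels are CPM after the same scaling (normalised CPM), fold changes are log2 of P14 over P1 with their standard error (SE), and "rose" and "fell" mean past both thresholds. Some genes were named by a stated rule and others after their values were seen. The higher genes changed by a median of 1.58 and the lower genes by a median of -1.99 on the log2 scale, and the median of all genes tested was -0.04. Of the genes tested, 11519 passed the CPM minimum at both ages, 1702 at P1 alone and 555 at P14 alone. Of the genes passing at P1 alone 299, and of those passing at P14 alone 149, were called, and these had to be high at one age to be tested at all. Without TMM scaling the median of all genes tested moved by -0.32, and the split became 696 genes higher and 1788 lower, so that the share of higher genes among those called went from 54.0% to 28.0%.

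Library totals ran from 19323437 to 33361246 counts, so that 3 counts correspond to 0.0899 to 0.155 CPM. Of the counts from 1 to 20 in the 6 libraries, 65.3% to 73.5% were even, so a read pair may have been counted as 2, and a floor of 3 counts may stand for fewer fragments. Mitochondrial genes took 18.2% ± 1.64 (SD, n = 3) of the counts at P1 and 22.9% ± 1.08 (SD, n = 3) at P14, with no overlap (exact two-sided permutation test, p = 0.1, the smallest that 3 against 3 libraries allow). Markers of other cells were read as summed CPM over each list. Hair cell markers summed to 584 to 1102 CPM at P1 and 220 to 1036 CPM at P14, against at least 10739 CPM in the hair cell libraries of the series, and 0 of 15 tested members passed in limma-voom, in edgeR or in DESeq2, with 2 at an unadjusted p under 0.05 (1 without P14 library 3 and 2 without P1 library 2 as higher and 1 without TMM scaling and 1 without P14 library 1 as lower). Schwann cell myelin markers summed to 132 to 391 CPM at P1 and 276 to 1150 CPM at P14, against at least 17014 CPM in the glial libraries, and 3 of 7 tested members passed as higher, with a median of 1.89 (1 in edgeR, 0 without P1 library 1 or P14 library 1, 1 without P1 library 3 or P14 library 2 and 5 without P14 library 3). Glial markers summed to 78.4 to 99.8 CPM at P1 and 267 to 384 CPM at P14, against at least 3050 CPM in the glial libraries, and 2 of 6 were higher (1 without TMM scaling, 4 in DESeq2 and 1 without P1 library 1, P1 library 2, P1 library 3 or P14 library 1). That sum includes S100b, which was at 45.3 to 61.6 normalised CPM at P1 and 156 to 361 at P14. Connective tissue markers reached 711 CPM in P1 library 1 and 275 CPM in P14 library 1 and were between 37.3 and 40.1 CPM in the other 4 libraries. Endothelial markers reached 334 CPM in P1 library 1 alone, and 36.7 CPM or less elsewhere. Organ of Corti supporting cell markers summed to 538 to 765 CPM at P1 and to a lower 396 to 536 CPM at P14. They summed to 1041 to 1156 CPM in the hair cell libraries and 343 to 400 CPM in the glial libraries. Of these markers 1 of 5 tested was higher (0 without TMM scaling, 2 in edgeR and in DESeq2 and 0 without P1 library 1 or P14 library 2). Of 2 tested microglial markers 1 was lower (0 without P1 library 1, P1 library 2, P14 library 1, P14 library 2 or P14 library 3), and the defining Cx3cr1, Aif1 and C1qa were at 3 counts or fewer in all 6 libraries. No blood cell or inhibitory neuron marker was tested, and Gad1, Slc32a1 and Slc6a5 were at 3 counts or fewer throughout. The Y-linked Kdm5d was at 1.08 normalised CPM in P14 library 1 and at 10.9 to 36 in the other 5 libraries. Of 5 sex-linked genes, listed after values were seen, 2 fell (40%, against 7.55% of all genes) and 0 had a positive value. Their median was -2.05, and the number that fell was 0 in edgeR, 1 in DESeq2 and 3 without TMM scaling. The labels do not give the sex of the pooled animals, and its part in the results was not tested.

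**Figure D1:**
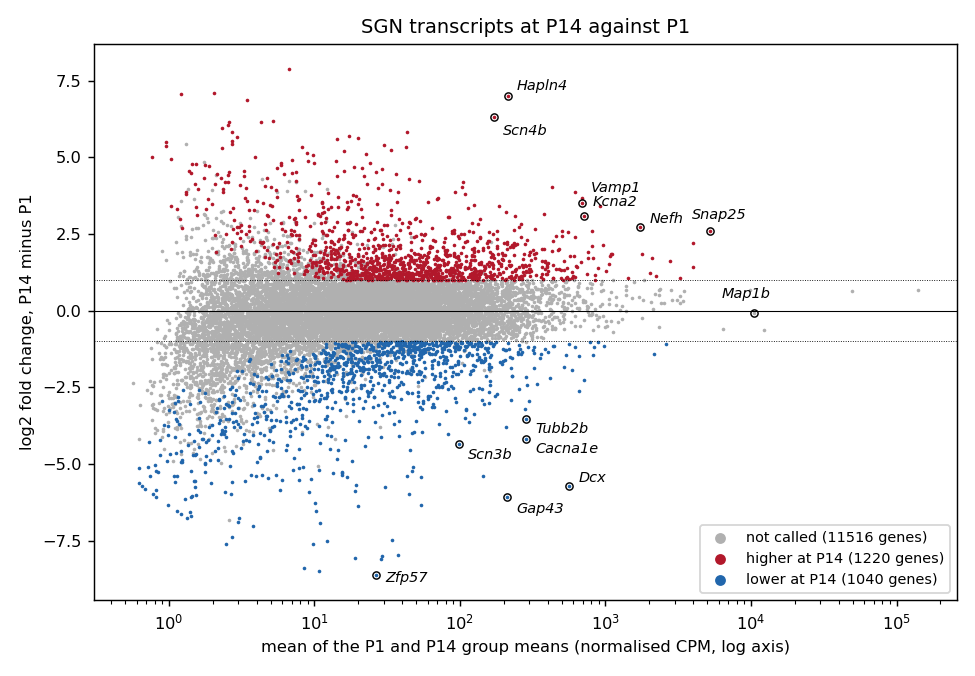
Each point is 1 of the 13776 genes tested, with the mean of its P1 and P14 group means in normalised CPM on a log axis and its log2 fold change (P14 minus P1) on the vertical axis. Red marks the 1220 genes higher at P14, blue the 1040 lower and grey the rest, dotted lines mark 2-fold, and Hapln4 (7.01), Scn4b (6.32), Dcx (-5.70) and Gap43 (-6.07) lie far from the axis at moderate levels while Map1b (-0.06) lies on it.

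The largest rise among genes above 10 CPM was that of Hapln4 (chr8:70083457-70090862, plus strand, GRCm38), a link protein of perineuronal nets. It was at 3.29, 3.80 and 2.77 normalised CPM in the P1 libraries and at 403, 439 and 433 in the P14 libraries, a log2 fold change of 7.01 ± 0.43 (SE) with an adjusted p of 2.43e-08. Scn4b (chr9:45138395-45154152, plus strand), the sodium channel beta subunit linked to resurgent current, went from 3.93, 5.00 and 3.77 to 334, 414 and 269 normalised CPM (6.32 ± 0.45). For both genes the lowest P14 library was above the highest P1 library, which the rule that named them required. Such separation held in one direction or the other for 41.8% of all genes tested.

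Among the 10 largest rises were also the nicotinic receptor subunits Chrna6 (5.70 ± 1.15) and Chrnb3 (5.24 ± 0.94), the proteoglycan Bcan (5.63 ± 0.79), the lymphatic growth factor partner Ccbe1 (5.85 ± 0.65) and the co-chaperone Bag3 (5.34 ± 1.16). Akain1, Vwa7 and Lmcd1 completed the set, at 5.2 to 5.59. The 2 nicotinic subunits neighbour each other on chromosome 8 and were both called. Chrnb3 was at 1.82, 0.226 and 7.75 normalised CPM at P1 and 50.4, 37.8 and 104 at P14, and Chrna6 at 0.374, 0.0752 and 4.50 and then 25.1, 15.4 and 58.1. Both were highest in library 3 of each age.

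The 10 largest falls each had at least 1 P14 library at 3 counts or fewer, with up to 59 counts in another. Syt17, a synaptotagmin family member, had 1843, 2228 and 2241 counts at P1 and 14, 4 and 2 at P14. Ly6h, a nicotinic receptor partner, had 713, 484 and 662 counts at P1 and 0, 0 and 6 at P14. Zfp57, a zinc finger protein that maintains imprints, had 2034, 1443 and 1218 counts at P1 and 59, 0 and 0 at P14.
Stk32b, Cdhr1, Stum, Nell1, Cpne5 and Prr36 showed the same pattern, with at most 25 counts in any P14 library. The GDNF family receptor Gfra2 fell from 2418, 2004 and 782 counts to 44, 0 and 2, a call that was lost without P14 library 2 (adjusted p = 0.0504) or P14 library 3 (adjusted p = 0.0609). The fitted log2 values of these 10 genes, from -7.47 to -8.61, depend on the 0.5 counts that voom adds and are not bounds. For Zfp57 and Nell1 every P14 count came from P14 library 1, and Nell1 was not called in edgeR (adjusted p = 0.0542).

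To show the sequence context of genes with large changes in each direction, the 300 bases from 250 before to 50 after the annotated start (RefSeq, GRCm38.p6) are given for 3 genes that rose and 1 that fell. Matches on either strand to an E box (CAGCTG, in 16.1% of 27025 promoters of that table), a TATA box (TATAAA, 14.2%), a GC box (GGGCGG, 35.9%) and a cyclic AMP response element (TGACGTCA, 1.88%) are in capitals. Among the 9829 genes tested that had a promoter at hand, the shares were 14.8%, 6.43%, 65.8% and 3.46% in the same order.
Scn4b (chr9:45138374-45138673, plus strand): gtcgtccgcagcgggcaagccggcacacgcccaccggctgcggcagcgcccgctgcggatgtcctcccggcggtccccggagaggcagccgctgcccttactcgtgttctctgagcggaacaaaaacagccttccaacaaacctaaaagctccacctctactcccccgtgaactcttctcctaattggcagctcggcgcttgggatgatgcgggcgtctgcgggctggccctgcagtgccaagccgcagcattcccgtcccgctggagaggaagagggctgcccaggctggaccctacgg
Kcna2 (chr3:107101317-107101616, plus strand): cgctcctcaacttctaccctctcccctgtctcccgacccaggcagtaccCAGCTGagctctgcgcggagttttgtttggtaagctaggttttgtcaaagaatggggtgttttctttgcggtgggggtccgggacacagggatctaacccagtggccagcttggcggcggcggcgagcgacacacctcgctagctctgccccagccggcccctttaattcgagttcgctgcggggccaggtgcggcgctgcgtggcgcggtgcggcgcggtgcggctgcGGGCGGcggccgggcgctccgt
Vamp1 (chr6:125215331-125215630, plus strand): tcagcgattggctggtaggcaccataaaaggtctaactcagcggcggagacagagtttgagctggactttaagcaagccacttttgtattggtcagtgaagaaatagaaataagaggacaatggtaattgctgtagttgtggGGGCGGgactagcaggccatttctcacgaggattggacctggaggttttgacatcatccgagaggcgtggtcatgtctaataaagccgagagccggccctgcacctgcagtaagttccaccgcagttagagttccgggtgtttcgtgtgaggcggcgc
Dcx (chrX:143933170-143933469, minus strand): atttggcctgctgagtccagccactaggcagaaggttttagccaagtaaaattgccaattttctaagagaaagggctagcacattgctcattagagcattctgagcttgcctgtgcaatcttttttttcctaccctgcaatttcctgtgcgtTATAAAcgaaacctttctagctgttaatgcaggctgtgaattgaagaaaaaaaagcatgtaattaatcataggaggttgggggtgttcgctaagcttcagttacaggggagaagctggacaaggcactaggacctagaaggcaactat
The windows held 26 (Scn4b), 31 (Kcna2), 14 (Vamp1) and 3 (Dcx) CpG dinucleotides. These few chosen genes do not speak for rising or falling genes at large. Kcna2 had 1 E box and 1 GC box, Vamp1 had 1 GC box, Dcx had 1 TATA box 98 bases before the annotated start, and Scn4b had none of the 4 motifs. These are descriptions of the annotated windows. Promoters were at hand for 71.3% of the genes tested, under 80%, so a comparison of promoter composition between rising and falling genes is void and is not given.

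Sodium channel subunits were remodelled in both directions. Of 11 tested, 5 rose and 5 fell, with a median of -1.68. The nodal alpha subunit gene Scn8a (Nav1.6) was at 109, 171 and 172 normalised CPM at P1 and at 615, 872 and 675 at P14 (2.29 ± 0.21, adjusted p = 1.07e-06). Scn1a also rose (1.48 ± 0.23), as did the beta subunit genes Scn2b (1.10 ± 0.30, lost without P1 library 1 at adjusted p = 0.0731 or P14 library 3 at adjusted p = 0.0695) and Scn4b. Other alpha subunit genes moved the other way. Scn2a (Nav1.2) fell from 125, 139 and 174 to 32.2, 46.7 and 63.7 normalised CPM (-1.68 ± 0.27), Scn3a by 2.86 ± 0.36 and Scn9a by 2.12 ± 0.37 on the log2 scale. The beta subunit gene Scn3b fell by 4.36 ± 0.73 on that scale, from 195, 195 and 170 to 19.7, 6.90 and 4.49 normalised CPM. Per kilobase of transcript, the ratio of Scn8a to Scn2a was 0.706 to 0.994 in the P1 libraries and 8.55 to 15.4 in the P14 libraries.

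Of 12 genes of the node of Ranvier and initial segment 2 rose (0 without TMM scaling, 1 in edgeR and in DESeq2 and 1 without P1 library 1, P1 library 3 or P14 library 2), the other 10 were not called, and 9 had a positive log2 fold change. The cell adhesion molecule Nfasc went from 283, 311 and 252 to 606, 545 and 626 normalised CPM (1.07 ± 0.15), at 1.00 without P1 library 3 and 0.75 without TMM scaling, both short of 2-fold. Cntnap1, of the paranodal junction, passed at 1.10 ± 0.28 but was lost in edgeR (adjusted p = 0.0952), without P1 library 1 (0.70) and without P14 library 2 (0.92).

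**Figure D2:**
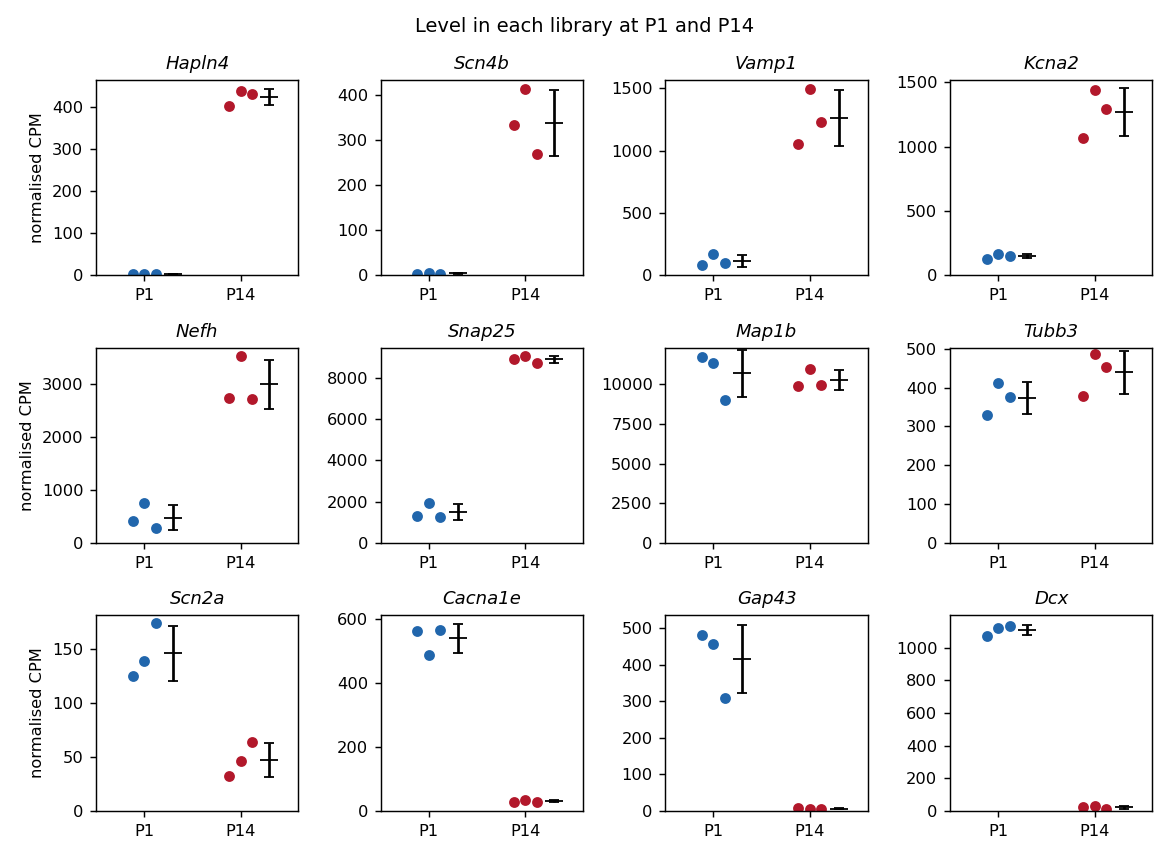
Normalised CPM of 12 genes in each of the 3 P1 libraries (blue) and 3 P14 libraries (red), on linear axes that start at 0, with the mean and SD in black. Snap25 and Nefh rise and Dcx and Gap43 fall with no overlap between ages, while the ranges of Map1b and Tubb3 overlap.

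Voltage-gated potassium channels of the Kv1 to Kv4 families and their partners rose more often than they fell. Of 25 tested, 13 rose and 3 fell, against 8.86% and 7.55% of all genes, with a median of 1.31. The low-threshold Kv1 channels were prominent: Kcna2 was at 130, 167 and 154 normalised CPM at P1 and at 1070, 1441 and 1294 at P14 (3.08 ± 0.20, adjusted p = 3.50e-08), and Kcna1 rose by 2.65 ± 0.21. Their auxiliary subunit genes Kcnab2 (3.14 ± 0.20) and Kcnab3 (2.99 ± 0.44) rose with them. The Kv3 gene Kcnc1, whose fast current allows high firing rates, went from 136, 183 and 136 to 584, 572 and 672 normalised CPM (2.02 ± 0.16). Kcnd3 (Kv4.3) and Kcnb2 also rose, by 2.87 ± 0.74 and 2.22 ± 0.41. Among the falls were Kcna6 (-1.69 ± 0.32) and the modulatory Kcns2, which was at 1.88 to 4.15 normalised CPM at P1.

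In the KCNQ, ERG, EAG and ELK families 3 of 12 rose and 5 fell. Kcnq3, of the M current, fell from 428, 640 and 496 to 165, 219 and 197 normalised CPM (-1.41 ± 0.21), while Kcnq5 rose from 1.82, 2.18 and 4.66 to 39.6, 38.7 and 130 (4.46 ± 1.03). The ERG gene Kcnh7 rose by 1.42 ± 0.32. The number of falls was 3 in edgeR, 2 without P14 library 2 or P14 library 3 and 3 without P1 library 1, P1 library 2 or P14 library 1.

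The pacemaker channel genes split. Hcn2 rose from 13.5, 11.8 and 6.79 to 51.0, 55.6 and 77.8 normalised CPM (2.49 ± 0.33), whereas Hcn3 fell (-1.42 ± 0.32). Hcn4 was at 76.9 to 88.1 normalised CPM at P1 and 58.7 to 114 at P14, and the 95% interval of its log2 fold change, -0.45 to 0.39, lay within 2-fold either way, as it did for 22.8% of all genes. Of 8 calcium- and sodium-activated potassium channels 3 fell and the other 5 were not called, the falls including the sodium-activated Kcnt1 (-1.45 ± 0.29). Of 13 inward rectifier and two-pore channels 4 rose (2 without P1 library 1) and the other 9 were not called. The two-pore channel gene Kcnk1 rose from 31.3, 53.3 and 77.7 to 248, 337 and 327 normalised CPM (2.62 ± 0.28). Kcnj10, which satellite glia also express, rose by 2.89 ± 0.55 from 3.65 to 11.4 up to 34.3 to 58.3 normalised CPM, beside the higher glial and myelin marker sums at P14 given above, whose part in it was not tested.

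Voltage-gated calcium channel transcripts fell more often than they rose. Of 15 tested, 5 fell (33.3%, against 7.55% of all genes) and 1 rose (6.67%, against 8.86%), with a median of -0.50. Cacna1e, the R-type alpha subunit, had the steepest fall, from 563, 489 and 568 to 28.2, 33.7 and 28.1 normalised CPM (-4.17 ± 0.41, adjusted p = 2.35e-06). Falls were also seen in the T-type Cacna1h (-2.84 ± 0.58), the N-type Cacna1b (-2.07 ± 0.27), the L-type Cacna1d (-1.51 ± 0.22) and the accessory Cacna2d1 (-2.67 ± 0.40). The member that rose was the beta subunit gene Cacnb4 (1.20 ± 0.22, and 0.89, short of 2-fold, without TMM scaling).

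Receptor transcripts for fast transmitters were mostly lower or not called. In the AMPA receptor list 7 of 21 fell and 1 rose (0 without TMM scaling and 0 without P1 library 3, P14 library 1 or P14 library 2). The members that fell were partners and scaffolds, not pore subunits. Shisa7 went from 81.5, 87.7 and 81.1 to 3.87, 3.47 and 0.460 normalised CPM (-5.37 ± 0.65). Cacng4 went from 111, 89.5 and 65.5 to 9.91, 2.48 and 0.345 normalised CPM (-5.23 ± 1.17). The fitted fold of Cacng4 was 37.6, and the ratio of its group means was 20.9. Cnih2 changed by -3.15 ± 0.60 and Shisa6 by -2.40 ± 0.50. The scaffold genes Shank3 (-1.68 ± 0.37) and Dlg3 (-1.56 ± 0.34) also fell. For NMDA, kainate and delta receptors 1 of 12 rose (8.33%, near the 8.86% of all genes) and 3 fell (25%, against 7.55%). The obligatory NMDA subunit gene Grin1 rose from 94.9, 92.8 and 94.1 to 188, 269 and 223 normalised CPM (1.25 ± 0.15, and 0.94 without TMM scaling), while Grin2d fell by 1.97 ± 0.42 and Grin2a went from 4.25, 6.50 and 4.58 to 0.583, 0 and 0 normalised CPM. For GABA-A and glycine receptors and chloride transport 5 of 14 fell and 1 rose (2 without P1 library 2, P1 library 3 or P14 library 2). The shares were 35.7% lower, against 7.55% of all genes, and 7.14% higher, near the 8.86% of all genes. The ones that fell, Gabra3, Gabra4, Gabra5, Gabrb1 and Glra2, had low levels, with Gabrb1 the highest at 19.6 to 25.9 normalised CPM at P1, and Gabra5 was lost without P14 library 3 (adjusted p = 0.0567). Gabra4 had 95, 75 and 48 counts at P1 and 0 in each P14 library. The glycine receptor beta subunit gene Glrb rose from 25.4, 25.0 and 26.9 to 129, 169 and 154 normalised CPM (2.54 ± 0.27). Among 17 nicotinic, P2X and acid-sensing receptor genes 4 rose and 2 fell: beside Chrna6 and Chrnb3, P2rx6 (4.02 ± 0.64) and Asic3 (1.39 ± 0.25) rose, and P2rx3 went from 184, 247 and 199 to 25.1, 6.35 and 30.1 normalised CPM (-3.62 ± 0.65).

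**Figure D3:**
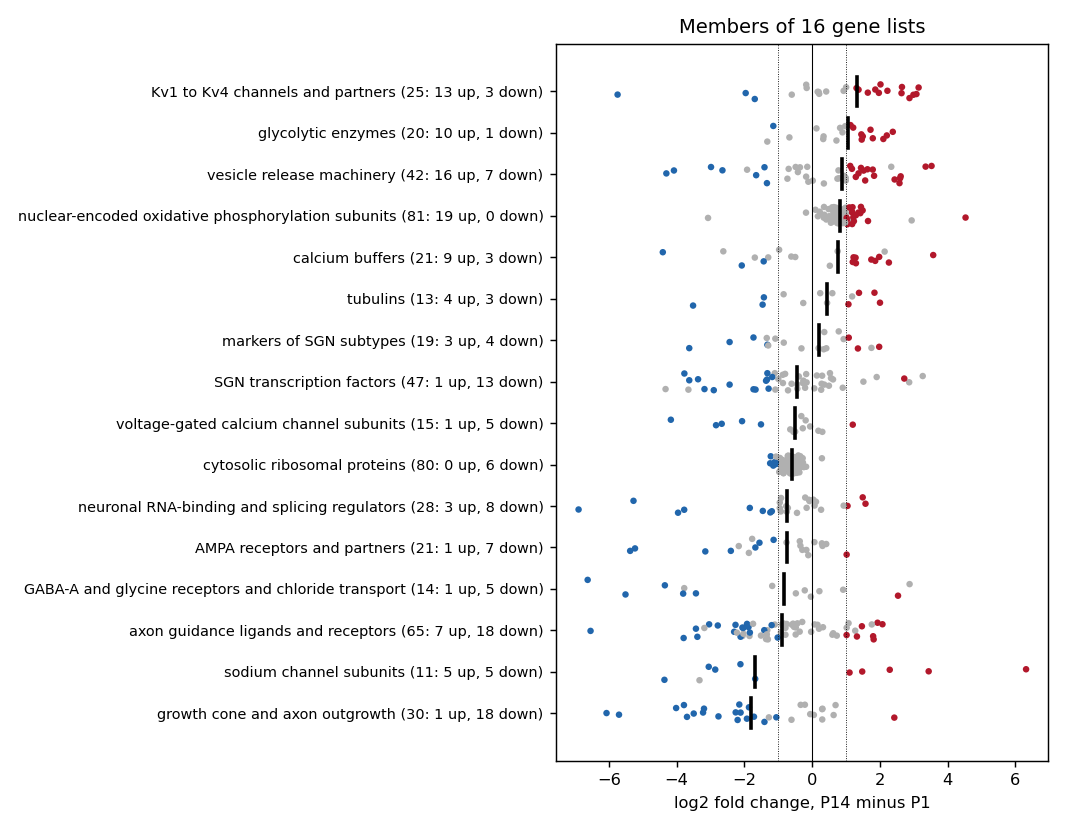
Log2 fold change (P14 minus P1) of each tested member of 16 gene lists, in red where it rose, blue where it fell and grey where it was not called, with the list median as a black bar and 2-fold as dotted lines. Labels give the number tested and the numbers that rose and fell, with Kv1 to Kv4 channels (13 of 25 up) at one end and growth cone genes (18 of 30 down) at the other.

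In the machinery of vesicle release more genes rose than fell. Of 42 genes 16 rose and 7 fell, with a median of 0.87. Snap25, one of the core SNARE proteins, had with Dcx the smallest adjusted p of all genes: it was at 1305, 1930 and 1267 normalised CPM at P1 and at 8905, 9039 and 8689 at P14 (2.60 ± 0.13, adjusted p = 2.28e-09). The fusion ATPase gene Nsf (2.58 ± 0.17), the vesicle proteins Syngr1 (3.35 ± 0.32), Sv2c (2.62 ± 0.39) and Syp (1.29 ± 0.18, and 0.97 without TMM scaling) and both vesicular glutamate transporters, Slc17a7 (1.83 ± 0.29) and Slc17a6 (1.37 ± 0.24), rose. The members that fell were Stx1a, Cplx2, Unc13b, Synpr, Syn3, Erc1 and Erc2, from Syn3 (-1.33) to Synpr (-4.31). Among them the active zone protein gene Erc1 went from 311, 302 and 283 to 89.3, 83.6 and 117 normalised CPM. Synpr was lost without P14 library 1, 2 or 3 (adjusted p of 0.0626, 0.0885 and 0.0700) and in edgeR (adjusted p = 0.0502).

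Ratios within 15 pairs of related genes were compared, chosen with earlier results known. Ratios of CPM per kilobase could be formed in every library for 14, and in 8 of these the ratios at the 2 ages did not overlap, while the levels of 41.8% of single genes did not overlap (exact two-sided permutation test, p = 0.1, the smallest possible, and 0.175 after adjustment over the 14 pairs, so that no pair passed). The ratio of Vamp1 to Vamp2, 2 synaptobrevins, was 0.0847 to 0.169 at P1 and 1.38 to 4.47 at P14. Vamp1 itself was at 79.6, 168 and 97.8 normalised CPM and then at 1056, 1497 and 1229 (3.53 ± 0.27), while Vamp2 was at 352 to 374 and then at 126 to 298 without passing (-0.73 ± 0.29, adjusted p = 0.0837, and called at -1.06 without TMM scaling). Cplx1 over Cplx2, 2 complexins, went from 7.30 to 14 up to 123 to 250, with Cplx1 at 1.52 ± 0.20 and Cplx2 at -2.65 ± 0.35. The syntaxin gene Stx1a fell from 39.1, 17.7 and 16.1 to 0.916, 1.39 and 2.19 normalised CPM (-4.08 ± 0.86).
The largest shift was in sodium channel beta subunits, with Scn4b over Scn3b at 0.0221 to 0.0281 at P1 and 18.6 to 65.9 at P14. The link proteins Hapln4 over Hapln1 went from 0.0966 to 0.203 up to 2.06 to 4.42. Ratios also did not overlap for Scn8a over Scn2a, Nefh over Ina and Tubb2a over Tubb2b. The ratios of Slc17a7 to Slc17a6, Syt2 to Syt1 and Tubb4a to Tubb3 overlapped between ages.

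**Figure D4:**
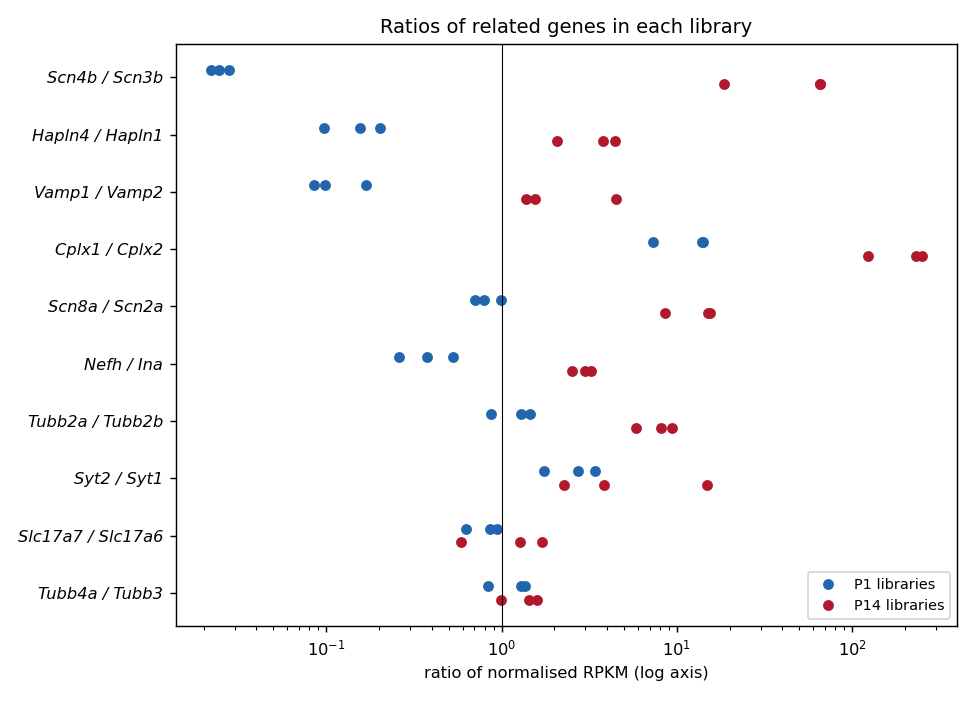
Ratio of normalised CPM per kilobase for 10 pairs of related genes in each P1 library (blue) and P14 library (red), on a log axis with a line at equal levels. Scn4b over Scn3b moves from 0.0221 to 0.0281 up to 18.6 to 65.9 while Slc17a7 over Slc17a6 overlaps.

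Most transcripts of the growing axon fell. Of 30 growth cone and axon outgrowth genes 18 fell and 1 rose, against 7.55% and 8.86% of all genes, with a median of -1.79, and the number that fell stayed between 17 and 19 in every alternative and with any of the 6 libraries left out. The microtubule-associated Dcx (chrX:143855842-143933311, minus strand), a marker of migrating and extending neurons, was at 1071, 1123 and 1132 normalised CPM at P1 and at 23.1, 29.0 and 13.3 at P14 (-5.70 ± 0.29, adjusted p = 2.28e-09). Gap43 (chr16:42248442-42340651, minus strand), the growth-associated membrane protein, went from 483, 458 and 310 to 6.70, 5.51 and 6.10 normalised CPM (-6.07 ± 0.80). No P1 library overlapped a P14 library for either gene. Over all genes tested 41.8% had groups that did not overlap, and the called genes nearly all did by the way they were called.
The stathmins Stmn1 (-3.79 ± 0.38) and Stmn4 (-1.72 ± 0.21), the actin regulators Marcks (-4.02 ± 0.59), Marcksl1 (-3.70 ± 0.40), Fscn1 (-3.50 ± 0.39) and Tmsb10 (-3.22 ± 0.45), and the collapsin response mediators Dpysl3 (-2.26 ± 0.15), Dpysl5 (-3.19 ± 0.38), Dpysl4 (-1.41 ± 0.31) and Crmp1 (-2.11 ± 0.16) fell with them. Mapt, which encodes tau, fell from 725, 725 and 608 to 133, 155 and 164 normalised CPM (-2.20 ± 0.17), and the adhesion molecule Ncam1 by 2.15 ± 0.19 on the log2 scale. The most abundant member, Map1b, did not move with the rest: it was at 8982 to 11683 normalised CPM at P1 and 9860 to 10947 at P14 (95% interval of the log2 fold change -0.30 to 0.19). The actin-binding Cap2 was the one that rose (2.43 ± 0.35).

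Transcripts of the cytoskeleton moved in both directions. Of 13 tubulins 3 fell, the developmentally high Tuba1a (-1.42 ± 0.22), Tubb5 (-1.46 ± 0.18) and Tubb2b (-3.52 ± 0.30), and 4 rose, among them Tuba4a (2.00 ± 0.18) and Tubb4b (1.84 ± 0.24). The number that rose was 2 without TMM scaling and 2 without P1 library 1 or P14 library 3. Tuba1a was the most abundant tubulin and went from 3226, 3491 and 2636 to 1341, 824 and 1398 normalised CPM. Tubb3, used as a neuronal marker, was at 330 to 412 and 379 to 487 normalised CPM, an interval of -0.21 to 0.68. Nefh, the heavy neurofilament of large axons, rose from 412, 753 and 281 to 2741, 3522 and 2708 normalised CPM (2.74 ± 0.27). Nefl also rose, at 1.07 ± 0.14, but fell short of 2-fold without P14 library 3 (0.90) and without TMM scaling (0.75).

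Guidance genes were lower on balance. Of 65 tested 18 fell (27.7%, against 7.55% of all genes) and 7 rose (10.8%, near the 8.86% of all genes), with a median of -0.89. The ephrin Efnb3 fell from 22.8, 18.0 and 19.5 to 0.791, 0.0992 and 0.0575 normalised CPM (-6.54 ± 1.00), and the Eph receptor Epha10 by 3.39 ± 0.56 on the log2 scale. The netrin and RGM receptor gene Neo1 fell from 807, 835 and 793 to 234, 197 and 255 (-1.84 ± 0.14), and the plexins Plxna3 (-2.79 ± 0.38) and Plxnb1 (-3.04 ± 0.56) and the netrin receptors Dcc (-2.03 ± 0.40) and Unc5b (-2.06 ± 0.37) fell as well. The semaphorin gene Sema7a rose from 99.0, 153 and 123 to 347, 595 and 495 normalised CPM (1.93 ± 0.28). The number that rose was 3 without TMM scaling, 3 without P1 library 1 and 4 without P1 library 2.

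Among 47 transcription factors of SGNs and their precursors 13 fell and 1 rose (2 in edgeR and in DESeq2, 0 without P1 library 1 and 2 without P1 library 2 or P14 library 3), with a median of -0.44. The SoxC factors Sox11 and Sox4, which drive immature neuronal programmes, fell, Sox11 from 262, 185 and 232 to 32.0, 22.2 and 13 normalised CPM (-3.37 ± 0.45) and Sox4 by 3.18 ± 0.64 on the log2 scale. Gata3, required for SGN development, fell from 114, 105 and 77.7 to 53.0, 32.4 and 33.9 normalised CPM (-1.32 ± 0.32). Runx1 (-1.73 ± 0.19), Casz1 (-1.67 ± 0.28), Eya1 (-1.29 ± 0.19) and the surface protein Islr2, placed in this list, (-2.90 ± 0.27) fell too. The one that rose was Esrrb, an orphan nuclear receptor, from 0.909, 3.68 and 9.04 to 15.2, 11 and 41.5 (2.72 ± 0.69), a call lost without P1 library 1 (1.68, adjusted p = 0.0788). Its relative Esrrg was at 480 to 628 normalised CPM at P1 and 415 to 561 at P14, with an interval of -0.54 to 0.19. Prox1, which was at 406 to 627 and 272 to 447, did not pass (-0.61 ± 0.23, adjusted p = 0.0604).

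Of 28 neuronal RNA-binding proteins and splicing regulators 8 fell and 3 rose (13 and 2 without TMM scaling). The shares were 28.6% lower, against 7.55% of all genes, and 10.7% higher, near the 8.86% of all genes. In the CELF family, Celf3 fell from 99.7, 87.5 and 84.9 to 4.29, 7.54 and 6.44 normalised CPM (-3.96 ± 0.42). Celf5 fell from 32.0, 18.7 and 36.3 to 3.00, 3.03 and 0 normalised CPM (-5.28 ± 1.08). With 0 counts in P14 library 3, that fitted value depends on the 0.5 counts that voom adds. The fitted fold of Celf5 was 38.7, and the ratio of its group means was 14.4. Both muscleblind genes rose, Mbnl1 from 104, 118 and 119 to 315, 360 and 285 normalised CPM (1.49 ± 0.14) and Mbnl2 by 1.58 ± 0.17. Elavl3 fell (-1.24 ± 0.22), while Elavl4 was at 437 to 520 and 365 to 490 normalised CPM, with an interval of -0.54 to 0.13.

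Many transcripts of energy metabolism rose. Of 20 glycolytic genes 10 rose and 1 fell, with a median of 1.06. Aldoc went from 22.8, 35.8 and 39.5 to 147, 156 and 186 normalised CPM (2.38 ± 0.24), and Pfkm (2.21 ± 0.27), Ldhb (2.10 ± 0.23), Aldoa (1.79 ± 0.18), Eno2 (1.72 ± 0.17), Pkm (1.45 ± 0.17) and Pgam1 (1.46 ± 0.18) rose with it. The phosphofructokinase genes moved apart, with Pfkp, a platelet-type isozyme, falling from 541, 548 and 698 to 229, 273 and 306 normalised CPM (-1.15 ± 0.17). Summed over the list, the level went from 4592 ± 475 to 10217 ± 1672 normalised CPM (SD, n = 3).
Of 81 nuclear-encoded subunits of oxidative phosphorylation 19 rose and the other 62 were not called, with a median of 0.82 and a positive value in 79. The succinate dehydrogenase subunit Sdha went from 179, 256 and 262 to 549, 653 and 734 normalised CPM (1.49 ± 0.21). The complex I subunits among them were mostly a little over 2-fold, and the number called was 5 without TMM scaling, 11 without P14 library 3 and 32 without P14 library 1. The 15 mitochondrially encoded genes tested had a median of 0.25 (-0.07 without TMM scaling) and 0 passed in limma-voom, in edgeR or in DESeq2, with 4 at an unadjusted p under 0.05, all under 2-fold.
The sodium pump, which restores gradients after firing, had 2 of 8 subunits higher and 1 lower (0 in edgeR and in DESeq2, 2 without TMM scaling and 0 without P14 library 2 or P14 library 3). Atp1b1 rose from 642, 1133 and 570 to 2046, 3708 and 2618 normalised CPM (1.86 ± 0.25).

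Cytosolic ribosomal protein genes had small negative values. Of 80 tested 6 fell, a share of 7.5% that was near the 7.55% of all genes, and the other 74 were not called. The median was -0.60, with a negative value in 79. Their summed level went from 8573 ± 1270 to 5501 ± 451 normalised CPM (SD, n = 3). The number that fell was 31 without TMM scaling, 1 without P1 library 1 and 12 without P1 library 2. Of 22 the interval lay within 2-fold either way.

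Of 10 perineuronal net and matrix genes 4 rose and 3 fell. Beside Hapln4 and Bcan, which was at 0.481, 0.940 and 1.08 normalised CPM at P1 and 49.8, 38.3 and 28.1 at P14, Tnr and Hapln1 rose. Tnr (3.00 ± 0.78) was lost without P1 library 1 (1.95, adjusted p = 0.0821). Hapln1 (2.57 ± 0.85) was lost when leaving out each of the 6 libraries in turn (adjusted p of 0.0540 to 0.137) and in edgeR (adjusted p = 0.192). The lectican Ncan (-1.61 ± 0.22) and tenascin-C, Tnc (-3.62 ± 0.76), fell.

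Of 21 calcium-binding proteins 9 rose (5 without TMM scaling) and 3 fell. Calretinin, Calb2, went from 166, 206 and 191 to 622, 989 and 645 normalised CPM (1.98 ± 0.24) and Vsnl1 rose by 1.86 ± 0.20, while hippocalcin, Hpca, fell from 39.2, 44.4 and 41.8 to 6.25, 1.54 and 0.575 (-4.41 ± 0.78). S100b, which is also a glial marker, rose from 61.6, 46.6 and 45.3 to 156, 282 and 361 normalised CPM (2.27 ± 0.33). The summed glial markers (329, 267 and 384 CPM in P14 libraries 1, 2 and 3) include S100b itself, so that sum is no separate measure. The summed myelin markers were at 1150, 666 and 276 CPM in the same libraries, lowest where S100b was highest. The part of glial cells in the rise of S100b was not tested. Calbindin, Calb1, was at 25.9 to 43.8 and 9.15 to 16.7 normalised CPM without passing (-1.30 ± 0.69, adjusted p = 0.191, called at -1.36 in DESeq2).
Among 19 markers of SGN subtypes 3 rose (1 without P14 library 2) and 4 fell. Markers of the several type I subtypes moved in both directions, with Calb2 higher and Runx1 lower.

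Several other lists are given as counts, beside 8.86% higher and 7.55% lower over all genes tested. Some shares were above these, such as 27.3% higher for neuropeptides and granins and 23.5% lower for apoptosis genes. Others were below, such as 4.35% in each direction for cholesterol synthesis. Of 23 cholesterol synthesis genes 1 rose (0 without TMM scaling and 0 without P1 library 1, P1 library 3 or P14 library 3) and 1 fell (2 without TMM scaling and 0 without P14 library 2 or P14 library 3). Of 23 immediate early genes 1 fell (0 without P14 library 1 and 2 without P1 library 2) and of 15 DNA methylation genes 1 fell, Tet2 (-1.27 ± 0.22), with 3 without TMM scaling and 2 without P1 library 1, P1 library 2 or P14 library 2. Of 15 neurotrophin and neuregulin genes 2 fell (1 without P14 library 2 or P14 library 3). Of 19 cell cycle genes 3 fell (0 in edgeR, 0 without P1 library 1 or P14 library 2 and 1 without P14 library 3), with a median of -1.06 and 1 positive value. Of 17 apoptosis genes 4 fell and 2 rose (1 without TMM scaling and 1 without P1 library 2, P1 library 3 or P14 library 3). Among 11 neuropeptide and granin genes 3 rose (0 without TMM scaling and 1 without P1 library 3) and the other 8 were not called. Of 54 clustered protocadherins 5 fell (8 in DESeq2, 11 without TMM scaling, 1 without P14 library 1 and 2 without P14 library 3) and 1 rose (0 without TMM scaling and 0 without P1 library 2 or P14 library 3). Of 27 collagens 3 fell (1 in edgeR and 1 without P1 library 2, P14 library 1 or P14 library 2) and 2 rose (1 without P1 library 1, P1 library 2, P1 library 3 or P14 library 2), and of 27 kinesins 4 fell (2 without P1 library 1, P1 library 3, P14 library 2 or P14 library 3) and 3 rose (1 without TMM scaling). The kinesin Kif21b fell from 599, 565 and 546 to 97.9, 123 and 110 normalised CPM (-2.38 ± 0.16).
Of the 23 genes that the study itself singled out, 6 rose (3 without TMM scaling) and 5 fell. As these were chosen on the same samples they are no independent evidence of a direction. Those not already given include Scrt2 at 112 to 181 and 120 to 145 normalised CPM and Gabbr2 at 218 to 301 and 304 to 364, neither of which passed (adjusted p of 0.574 and 0.0609).

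The libraries of the other ages place these changes in time. Hapln4 was at 5.12 ± 2.66 normalised CPM (SD, n = 3) in E15.5 embryos and at 3.29 ± 0.513 in P1 pups. It was then at 169 ± 20.5 by P8, 425 ± 19.4 by P14 and 396 ± 54.3 by P30. Between P8 and P14 it rose by 1.33 ± 0.15 (adjusted p = 0.000560), and between P14 and P30 it was at -0.12 ± 0.14 without passing. Snap25 was at 442 ± 8.73, 1501 ± 373, 4818 ± 107, 8878 ± 177 and 12300 ± 1316 at the same ages in order. Dcx was at 1358 ± 258, 1109 ± 33.1, 77.6 ± 6.4, 21.8 ± 7.92 and 24.2 ± 5.41, so that its level at P8 was already far below that at P1. The mean level of Cacna1e was 30.0 ± 3.23 at P14 and 7.39 ± 7.5 at P30, but that step did not pass (-2.35 ± 0.81, adjusted p = 0.464). These contrasts share the P14 or P8 libraries with one another.

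**Figure D5:**
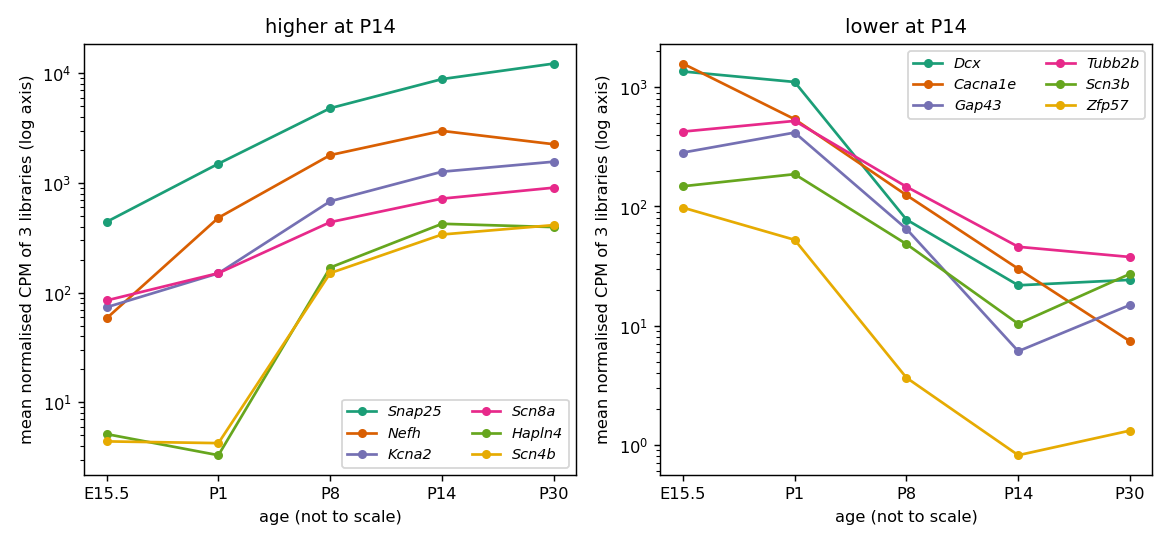
Mean normalised CPM of the 3 libraries of each of the 5 ages, from E15.5 to P30, on a log axis (ages not to scale) for 6 genes higher at P14 (left) and 6 lower at P14 (right). Hapln4 climbs from 3.29 at P1 to 169 at P8 and 425 at P14, and Dcx drops from 1109 at P1 to 77.6 at P8 and 21.8 at P14.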

How the data were processed

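RNA sequencing libraries were made from pools of hand-picked cells, and 15 SGN libraries of 5 ages entered the fit, 3 at each age. The authors deposited read counts per gene, with gene lengths in bases, as 1 table. Per the labels and submitters' processing notes, CASAVA, STAR 2.4.0i, featureCounts and mm10 were used. Settings for strand, multiple mapping and read pairs are not given in the sources used here, so overlapping and antisense genes and close paralogs are uncertain. Symbols for 52403 of the 52550 genes and positions were taken from GENCODE annotation of GRCm38.

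Genes with over 1 CPM in all 3 libraries of P1 or of P14 were tested with limma 3.58.1 (voom, TMM factors from edgeR 4.0.16, R 4.3.3), with no covariate, a Benjamini-Hochberg adjusted p under 0.05 and over 2-fold. Ratios and mitochondrial shares were compared by exact permutation tests (scipy 1.17.1). The procedure was tested on simulated data. Levels are normalised CPM, and ratios of genes are per kilobase of the deposited gene length. Intervals and floors cover counting error or the spread between libraries only. Between 65.3% and 73.5% of the low counts (1 to 20) were even, so floors assume that 1 count is 1 fragment, which may not hold. Alternatives were library-size scaling, edgeR's quasi-likelihood test, DESeq2 1.42.0, the 6 libraries alone, other count filters, sample quality weights, a replicate block, leaving out mitochondrial genes and leaving out each library.

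Members, gene lists and tests were chosen with earlier results of these data known. The named genes were the 10 largest rises and 10 largest falls above 10 CPM without overlap, up to 4 called members of each list with the largest change and the one with the highest level per length, genes of the pairs and genes the study singled out. Further list members were named after their values were seen. Some genes are not reported here.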

Additional observations from a re-analysis of the deposited data

How the results depend on the processing

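Relative to the 1220 higher and 1040 lower genes, library-size scaling alone gave 696 and 1788, and the cause was not tested. The other alternatives gave 954 to 1326 higher and 926 to 1201 lower genes. Leaving out each library in turn gave 851 to 1177 higher and 721 to 983 lower genes, and the difference in mitochondrial share was 3.79 to 5.37 percentage points. Between 68.5% (without P1 library 1) and 98.6% of the called genes remained called in an alternative, and 0 were called in the opposite direction. Of 164 called genes checked by name, 147 were called in every alternative that gave a value.

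Values near 0 changed sign without a call: Hcn4 was at 0.013 in edgeR, 0.013 in DESeq2, 0.030 with quality weights, and -0.27 to 0.17 with a library left out. With a library left out Map1b was at -0.17 to 0.018, positive without P1 library 1, and Tubb3 was at -0.078 with library-size scaling.

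A replicate block gave 1326 higher and 1195 lower genes. Deviations of libraries with the same number correlated at r = 0.199, 0.0795 and 0.0985, not all over 0.1, and P14 library 2 correlated most with P1 library 3, so the numbers were not taken to pair the libraries.

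With 3 libraries a side, an exact permutation test cannot go below 0.1. Genes under about 3 counts, 0.0899 to 0.155 CPM (fewer fragments if read pairs were counted as 2), were not detectable at this depth.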

Other observations

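Further gene groups were listed after values of these data had been seen, and are given as a description. Of 32 lysosomal enzymes and membrane proteins 10 rose and the other 22 were not called, with a median of 0.71. The protease gene Ctsb went from 125, 153 and 150 normalised CPM at P1 to 698, 805 and 832 at P14 (2.45 ± 0.14), Ctsd rose by 1.84 ± 0.28 and the saposin precursor Psap by 1.61 ± 0.20. For each of these 3 genes every P14 library was above every P1 library. Groups did not overlap for 41.8% of all genes tested and for 2216 of the 2260 called, so this adds no support.

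Of 32 imprinted genes 6 fell (18.8%, against 7.55% of all genes) and 3 rose (9.38%, near the 8.86% of all genes), with a median of -0.63. The cell cycle inhibitor gene Cdkn1c fell from 123, 96.3 and 98.1 to 2.12, 1.24 and 0.748 normalised CPM (-6.32 ± 0.95) and Nnat from 275, 243 and 318 to 14.2, 2.78 and 6.33 (-5.39 ± 0.64), while Nap1l5 rose from 67.5, 100 and 63.6 to 269, 452 and 319 (2.17 ± 0.25). Of 23 chromatin remodelling and HMG protein genes 8 fell (16 without TMM scaling and 5 without P14 library 1 or P14 library 3), among them Hmgn2 (-2.05 ± 0.39) and Dpf3 (-1.81 ± 0.33). Of 19 heat shock genes 4 rose and 18 had a positive value. Besides Bag3 they were Hspb8 (3.59 ± 0.75), Hspa4l (1.84 ± 0.20) and Hsph1 (1.35 ± 0.18).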
